A study of Arabidopsis thaliana with 4 samples.

Results

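The response of seedlings to growth temperature under simulated shade was described by setting the array of Arabidopsis thaliana plants grown at 16 °C and finished in low R:FR against the array of plants grown at 22 °C and finished in low R:FR. R:FR is the ratio of red to far-red light. These 2 arrays belong to a set of 4, with 1 array of 22810 probe sets for each combination of temperature and light. All 4 groups shared the accession La-er and were mutant for phytochrome A, a photoreceptor encoded by PHYA, and no plants with a working PHYA were analysed here. The mutant is labelled phyA for the 16 °C low R:FR array and phyA-2 for the others. The plants of the low R:FR groups, at 16 or at 22 °C, had 4 days of white light with an R:FR of 4.4 and then 24 h at an R:FR of 0.1. Those of the high R:FR groups, at 16 or at 22 °C, stayed at an R:FR of 4.4 for all 5 days. White light was 100 micromoles per square metre per second, the seedlings grew on soil, and cotyledons with a little hypocotyl were taken at an age of 5 days. The number of plants behind each array is not given in the sources used here, and any difference in growth stage between 16 and 22 °C at that age cannot be told apart from temperature.

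Leaves absorb red light and pass on far-red light, so a low R:FR tells a seedling that neighbours are near. It turns phytochrome B, the main sensor of shade, into its inactive form, which frees PIF transcription factors to promote auxin synthesis and stem elongation. Warmth acts on the same receptor, because the active form of phytochrome B is lost faster in warm plants. Cool temperatures are known to act through CBF transcription factors on COR genes, whose products protect membranes and proteins from freezing. The study asked which genes respond to low R:FR at each growth temperature, and the comparison here holds the light fixed and asks how temperature shows under shade.

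The deposited signals had a trimmed mean of about 100 on every array, with 2% of values left out at either end. Signals under 14.5, the 30th percentile of all values, were set to that floor, and 13643 of the 22746 probe sets other than controls had a geometric mean over the 4 arrays of at least 23.2 and are called measured. Of the probe sets past 2-fold between 16 and 22 °C in low R:FR, 22 higher and 77 lower ones passed that filter only through their brighter low R:FR array, and these had to differ. Among the named genes they are COR15A, APL3, EXLA2 and ICL. The filter's nearest probe sets had means of 23.2009 inside and 23.1976 outside it. With 1 array a condition no difference has a replicate check or a p-value, so probe sets are counted by size, at least 2-fold higher or lower at 16 than at 22 °C, and this is not a test. Transcripts spiked in at hybridization give 1 scale of error, since over their 18 probe sets the log2 differences between the low R:FR arrays had an SD of 0.21, the largest being 0.47. That scale leaves out plants, RNA extraction and labelling. A second scale, called the local SD, is the spread of log2 differences among the 500 probe sets closest in mean signal to a given gene. It was between 0.25 and 0.71 for the genes named below.

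The 16 °C low R:FR array stood apart from the rest. Over the measured probe sets, the correlation of log2 signals (Pearson's r) was 0.93 between it and the 22 °C low R:FR array, the lowest of the 6 pairs, and 0.975 between both 22 °C arrays, the highest. On it 259 probe sets were dimmer than on any other array by 2-fold or more and 30 were brighter by as much, whereas the 22 °C low R:FR array had 18 and 29 such probe sets. Control transcripts with probe sets at both ends (6 pairs) gave a log2 ratio of 3′ over 5′ signal, which reads RNA and label quality, whose mean was 0.54 on the 16 °C low R:FR array and 0.64 on that of 22 °C, and 0.82 and 0.73 on the 16 and 22 °C high R:FR arrays. The part of these differences between arrays in the results was not tested, and no array could be left out, since each condition had 1.

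Labelled as cotyledons, the samples carried the defining genes of photosynthetic leaf cells at high levels. The 6 measured markers of 31 listed summed to signals of 19574 at 16 °C and 16547 at 22 °C in low R:FR, and to 19090 and 17769 in high R:FR. Of the 26 root markers 2 were measured. Their sum was 1122 at 16 °C and 2887 at 22 °C in low R:FR, and 2072 and 2968 in high R:FR, and nearly all of it came from PYK10, a β-glucosidase gene of roots and hypocotyls. The root markers EXPA7, EXPA18 and AGL42 did not exceed a signal of 19.2 on any array. The meristem markers CLV3 and UFO were at 6 or below, and the seed marker OLEO3 at 16.3 or below. Of 15 guard cell, 11 trichome and 26 vascular markers 2, 1 and 1 were measured, all within 2-fold in low R:FR, with the vascular gene CLE41 at 96.6 and 118. In such whole-tissue RNA, fewer cells of a type and less RNA per cell cannot be told apart.

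In low R:FR, the genes that stood highest at 16 °C were freezing-protection genes and some chloroplast-encoded transcripts, and those that stood lowest were genes of jasmonate and pathogen responses. By 2-fold or more, 225 measured probe sets (1.65%) were higher at 16 °C and 901 (6.6%) were lower. The probe sets nearest the 2-fold limits had log2 differences of 1 and 0.9995 on the higher side, and of -1 and -0.9983 on the lower side. The median over all measured probe sets was -0.05, and the 5th and 95th percentiles were -1.15 and 0.72. Below 0 were 53.9% of them. This share and those past 2-fold are the values for all measured probe sets to set beside the list and family counts below. The lists were chosen with earlier results of these data known, so their counts are descriptions and not evidence of enrichment. At 3-fold the counts were 34 (0.249%) and 293 (2.15%). Of the 1126 probe sets past 2-fold, 225 or 19.98% were higher at 16 °C. That share depends on the scaling, since it was 39.7% after the arrays were brought to the same median and 30.1% after quantile normalization. Without regard to names, 3 of the 15 highest and 4 of the 15 lowest probe sets had a gene symbol, so the genes below are only the named part of the response.

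**Figure D1:**
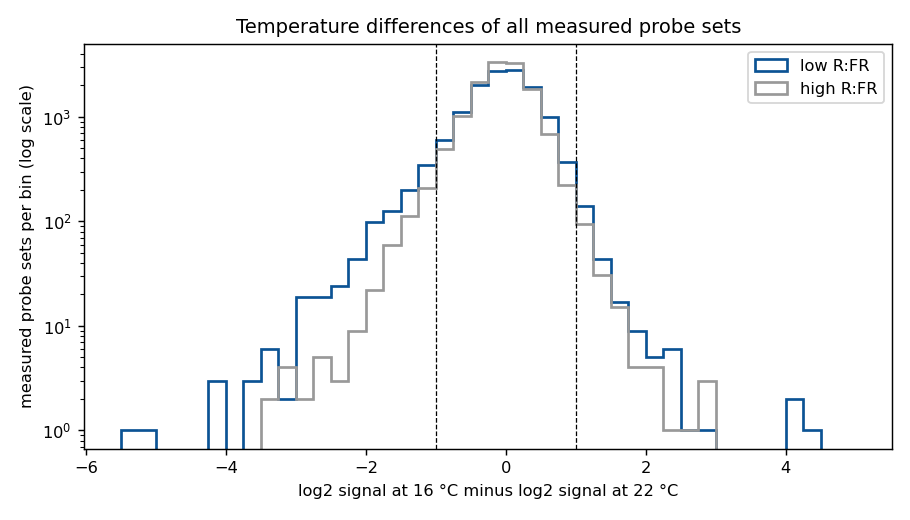
Number of measured probe sets (vertical axis, log scale) by log2 difference between 16 and 22 °C (horizontal axis), in low R:FR (blue) and in high R:FR (grey), with dashed lines at 2-fold. In low R:FR the lower side holds 901 probe sets past 2-fold and the higher side 225, with the arrays scaled as deposited.

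The freezing-protection genes COR15A and COR15B led the named genes that were higher at 16 °C. Both encode small chloroplast proteins that stabilise membranes in frozen cells. COR15B had a signal of 588 at 16 °C and 26.8 at 22 °C in low R:FR, and of 55.2 and 24 at the same temperatures in high R:FR. It stood far above the other 3 arrays on the 16 °C low R:FR array, with a log2 difference of 4.45 in low R:FR (local SD 0.48) and 1.2 in high R:FR. COR15A had a signal of 314 at 16 °C and 18.8 at 22 °C in low R:FR, and of 15.3 and 28.7 in high R:FR. Its log2 difference was 4.06 in low R:FR (local SD 0.47), and it was high on 1 array of the 4, through which alone it passed the filter. Of its other signals, 18.8 and 15.3 are near 17.9, the most that any control for an absent transcript reached, and 28.7 is above it. The size of its low R:FR ratio is therefore loose. With a higher floor, at the median of all signals (37.8), the difference was 3.05. The genes are similar in sequence, and probes of one may bind transcripts of the other.

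The other measured cold-regulated genes differed among themselves. COR27, a regulator of freezing tolerance and of the circadian clock, had signals of 95.9 at 16 °C and 32.8 at 22 °C in low R:FR, and of 76.5 and 30.3 in high R:FR. It was thus high on both 16 °C arrays and low on both 22 °C arrays, with log2 differences of 1.55 in low and 1.34 in high R:FR. LTI30, which encodes a dehydrin, had 85.4 at 16 °C and 26.9 at 22 °C in low R:FR but 41.2 and 37.3 in high R:FR, so that, like COR15A and COR15B, it stood over 2-fold above the other 3 arrays on the 16 °C low R:FR array, with log2 differences of 1.67 in low and 0.14 in high R:FR. The dehydrin gene COR47 was bright on every array and nearly level in low R:FR, at 616 and 581 (log2 0.08). TIL, a temperature-induced lipocalin gene, had a log2 difference of -0.22. STZ, a zinc finger repressor of cold and stress responses, went the other way, with 63.5 at 16 °C and 333 at 22 °C in low R:FR and 278 and 535 in high R:FR (log2 -2.39 and -0.94). Of 46 listed CBF and cold-regulated genes, 8 were found on the array by name and 7 were measured, of which 4 passed 2-fold on the higher side and 1 on the lower. COR15A, among the 4, passed the filter only through its 16 °C low R:FR array, so it had to differ. The list's median log2 was 1.55 in low R:FR and -0.37 in high R:FR, beside -0.05 and -0.04 for all measured probe sets. With the filter raised to the 60th percentile, which kept 4 of the 7 members, the low R:FR median was -0.07.

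**Figure D2:**
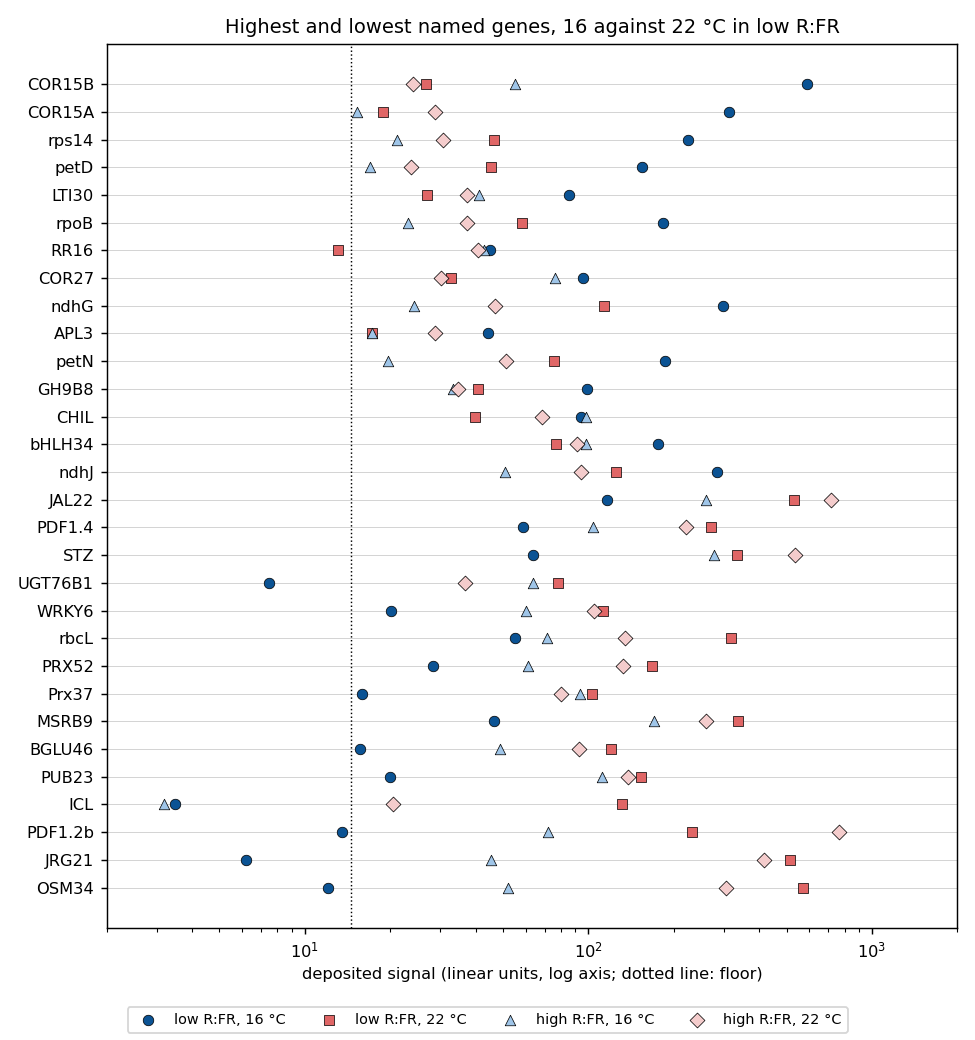
Deposited signal (horizontal, log axis) on each of the 4 arrays for the 15 highest and 15 lowest named genes of the comparison, ordered by their log2 difference in low R:FR, with the floor of 14.5 as a dotted line. For COR15B and COR15A the 16 °C low R:FR array (dark blue circles) lies far right of the other 3, and for OSM34 and JRG21 it lies below the floor while both 22 °C arrays lie far to the right.

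Among genes with a locus tag but no symbol, AT4G30650 was the highest at 16 °C. Its signal was 575 at 16 °C and 32.6 at 22 °C in low R:FR, and 273 and 65.2 in high R:FR. Like COR27 it was high on both 16 °C arrays, with log2 differences of 4.14 in low and 2.06 in high R:FR. AT3G16670, at 481 and 146 in low and 740.3 and 233 in high R:FR, differed by a log2 of 1.72 in low and 1.67 in high R:FR. AT5G59330, at 61 and 17 in low and 62.8 and 19.9 in high R:FR, differed by 1.81 and 1.66. Both had nearly the same difference in either light. AT5G57720 had 56.8 and 16.7 in low and 37.4 and 36.4 in high R:FR (log2 1.77 and 0.04), and AT1G44830 had 55.9 and 18.4 in low and 29.4 and 36 in high R:FR (log2 1.6 and -0.29). For these 2 genes the high R:FR signals lay between those of the low R:FR arrays. With the higher floor AT5G59330, AT5G57720 and AT1G44830 fell short of 2-fold, with log2 differences of 0.69, 0.59 and 0.56.

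Further named genes among the 15 highest were of scattered function. RR16 encodes a type-A response regulator of cytokinin signalling. It had a signal of 44.9 at 16 °C and lay under the floor at 13.1 at 22 °C in low R:FR, at least 3.1-fold higher at 16 °C, while in high R:FR it had 42.9 and 40.7. The 22 °C low R:FR array was therefore the one that stood apart for this gene, and with the higher floor the log2 difference was 0.25. GH9B8, a member of the endoglucanase family, had 98.7 and 40.8 in low and 33.4 and 34.8 in high R:FR (log2 1.27 and -0.06). bHLH34, a transcription factor gene, had 175 and 76.9 in low and 97.7 and 91.1 in high R:FR (log2 1.19 and 0.10). CHIL, which encodes a chalcone isomerase-like protein of flavonoid synthesis, had 94.2 and 39.7 in low and 97.8 and 68.5 in high R:FR (log2 1.25 and 0.51). APL3 encodes a large subunit of ADP-glucose pyrophosphorylase, the enzyme that commits sugar to starch. It had 44.3 and 17.3 in low and 17.2 and 28.7 in high R:FR (log2 1.36 and -0.74), all dim, and its low R:FR difference was 0.23 with the higher floor.

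Genes of sugar metabolism mostly stood above 0 at 16 °C in low R:FR. Of 80 listed sucrose, starch and sugar genes 10 were measured, of which 8 were above 0 in low R:FR, with 2 past 2-fold on the higher side and 0 on the lower. The median log2 was 0.55 in low and 0.54 in high R:FR. ATSPS4F, a sucrose phosphate synthase gene, had a signal of 322 at 16 °C and 168 at 22 °C in low R:FR and of 346 and 167 in high R:FR. F2KP, which controls fructose 2,6-bisphosphate and so the flow of carbon into sucrose, had 727 and 382 in low and 657 and 345 in high R:FR. Both genes were high on the 16 °C arrays and low on the 22 °C arrays with nearly equal differences, of 0.94 and 1.05 for ATSPS4F and 0.93 in either light for F2KP, just short of 2-fold in low R:FR. The sugar transporter gene SWEET13 had 61.5 and 30.5 in low and 53.2 and 25.9 in high R:FR (log2 1.01 and 1.04), and SWEET2 had log2 differences of 0.72 and 0.82. SWEET17, a vacuolar fructose transporter gene, was below 0 in both, at -0.54 and -1.03. The 2 genes past 2-fold, APL3 and SWEET13, fell short of it with the higher floor, at 0.23 and 0.70, and the list's median was then 0.33. APL3 passed the filter only through its 16 °C low R:FR array, so it had to differ.

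Jasmonate and wounding genes were the list with the lowest median. Jasmonate is the hormone of wounding, insect attack and necrotrophic fungi, and plant defensins are among its targets. Of 47 listed genes 7 were measured, of which 6 were lower by 2-fold or more and 0 higher in low R:FR. In high R:FR 5 were lower and 0 higher, where of all measured probe sets 3.17% were lower by as much and 1.12% higher. The median log2 was -2.19 in low and -1.46 in high R:FR. The list was chosen with earlier results of these data known. JRG21 encodes a jasmonate-regulated oxygenase. Its signal was 6.2 at 16 °C, under the floor, and 513 at 22 °C in low R:FR, and 45.4 and 416 in high R:FR. It was low on both 16 °C arrays, lower by at least 35.4-fold in low R:FR and by 9.17-fold in high R:FR.

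The defensin gene PDF1.2b had signals of 13.5 at 16 °C and 232 at 22 °C in low R:FR and of 71.8 and 767 in high R:FR. Its drop at 16 °C in low R:FR was at least 16.0-fold, on a probe set whose name marks it as one that other sequences may bind. Its near relative PDF1.2 had 12.6 and 59.2 in low and 24.4 and 164 in high R:FR, a drop of at least 4.08-fold in low R:FR. With the higher floor the log2 differences were -2.62 for PDF1.2b and -0.65, short of 2-fold, for PDF1.2. The gene behind these defensin signals is uncertain, since the copies are alike. PDF1.4 had 58.9 and 269.8 in low and 104 and 220.0 in high R:FR (log2 -2.20 and -1.08). JAL22, a jacalin-related lectin gene, had 116 and 530.2 in low and 261 and 716 in high R:FR (log2 -2.19 and -1.46). OPCL1, whose enzyme activates a precursor in jasmonate synthesis, had 57.2 and 133 in low and 83.2 and 138 in high R:FR (log2 -1.22 and -0.73). For all 6 of these genes both 16 °C arrays lay below both 22 °C arrays. The thionin gene THI2.2 was the member above 0, at 199.5 and 109.9 in low and 105 and 103 in high R:FR (log2 0.86 and 0.02).

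Measured genes of the salicylate and pathogen response list were also low at 16 °C in low R:FR. They were OSM34, PUB19, PUB22, PUB23, PUB24, WRKY53, GRX480 and SAG101, with none of the listed PR1, PR2, PR5 and ICS1. Of 58 listed genes 8 were measured and all 8 were below 0 in low R:FR, 6 of them by 2-fold or more. Among all measured probe sets 53.9% were below 0 in low R:FR and 6.6% were lower by 2-fold or more. In high R:FR 2 were lower by as much and 0 higher, beside 3.17% and 1.12% of all measured probe sets. The median log2 was -1.69 in low and -0.31 in high R:FR. Like the jasmonate list, this list was chosen with earlier results of these data known. OSM34, an osmotin-like gene of the PR5 family, had a signal of 12.1 at 16 °C, under the floor, and 571 at 22 °C in low R:FR, and 52.2 and 306 in high R:FR. The drop at 16 °C was at least 39.4-fold in low R:FR, the furthest of all named genes, and 5.85-fold in high R:FR. With the higher floor its log2 difference in low R:FR was -3.92.

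PUB22, PUB23 and PUB24 encode ubiquitin ligases that damp the immune response to microbial patterns. PUB23 had signals of 19.9 at 16 °C and 153 at 22 °C in low R:FR, and of 112 and 138 in high R:FR. PUB22 had 21.7 and 77.6 in low and 68 and 60 in high R:FR. For both the 16 °C low R:FR array lay below the other 3, which were close together, with log2 differences of -2.95 and -1.84 in low R:FR and -0.31 and 0.18 in high R:FR. With the higher floor PUB22 had -1.04. PUB24 had 30.5 and 90.6 in low and 55 and 78.5 in high R:FR (log2 -1.57 and -0.51). GRX480, whose glutaredoxin binds TGA transcription factors, had 34.5 and 119.7 in low and 87 and 89.8 in high R:FR (log2 -1.79 and -0.05). WRKY53, a transcription factor gene of senescence and defence, had 35.8 and 107 in low and 90.4 and 112 in high R:FR (log2 -1.58 and -0.31). These genes shared 1 dim array, the 16 °C low R:FR array. PUB19 was the exception, with its lowest signal, 22.6, on the 16 °C high R:FR array, against 147 at 22 °C in that light and 80.9 and 129.6 in low R:FR (log2 -0.68 in low and -2.71 in high R:FR).

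WRKY transcription factors, peroxidases and other stress genes lay on the same side. Of 6 measured WRKY genes 3 were lower by 2-fold or more in low R:FR and 0 higher, with a median log2 of -0.81. WRKY6 had signals of 20.2 at 16 °C and 113 at 22 °C in low R:FR and of 60.2 and 105 in high R:FR (log2 -2.48 and -0.80). WRKY22 had a log2 difference of -1.07 in low R:FR, and WRKY20, the highest of the family, had 134 and 109.5 in low and 121 and 129 in high R:FR (log2 0.29 and -0.10). All 4 measured class III peroxidase genes, whose enzymes work in the cell wall, were below 0 in low R:FR and 3 passed 2-fold. Prx37 had 15.9 and 103 in low and 93.2 and 80.1 in high R:FR, and AT5G64120, which RefSeq lists as PRX71, had 91.5 and 449.5 in low and 562 and 534 in high R:FR. For both the 16 °C low R:FR array lay alone below the rest, with log2 differences of -2.69 and -2.30 in low R:FR and 0.22 and 0.07 in high R:FR. PRX52 had 28.4 and 167 in low and 61.1 and 133 in high R:FR (log2 -2.56 and -1.12). MSRB9, a methionine sulfoxide reductase gene, had 46.5 and 336 in low and 171 and 259.7 in high R:FR (log2 -2.85 and -0.61).

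The redox list as a whole did not follow these genes. Of 73 listed genes 9 were measured, of which 3 (PRX52, Prx37 and MSRB9) were lower by 2-fold or more and 0 higher. The list's median log2 was 0.01 and turned to -0.04 with quantile normalization, while its mean was -0.72. SAPX and TAPX, which encode ascorbate peroxidases of the chloroplast, had log2 differences of 0.68 and 0.35 in low R:FR. MSRB6, a relative of MSRB9, had 0.47.

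Other genes among the 15 lowest were ICL, BGLU46 and UGT76B1. ICL encodes isocitrate lyase, which with malate synthase lets a germinating seedling turn stored oil into sugar. Its signal was 3.5 at 16 °C and 132 at 22 °C in low R:FR, and 3.2 and 20.5 in high R:FR. It was high on 1 array alone, that of 22 °C in low R:FR, through which it passed the filter, and its drop at 16 °C in low R:FR was at least 9.09-fold. SDP1, a lipase gene that starts the breakdown of seed oil, had 46.2 and 94.7 in low and 56.3 and 79.2 in high R:FR (log2 -1.04 and -0.49). AIM1, of fatty acid β-oxidation, had a log2 difference of -0.69. These were the 3 measured genes of 43 on the list of glyoxylate cycle and seed reserves, and the seed storage marker OLEO3 was not measured. BGLU46, a β-glucosidase gene, had 15.6 and 120 in low and 48.6 and 92.7 in high R:FR (log2 -2.94 and -0.93). UGT76B1, a glucosyltransferase gene of immune signalling, had 7.5 and 78.4 in low and 63.5 and 36.6 in high R:FR. At 16 °C it was lower by at least 5.41-fold in low R:FR and 1.73-fold higher in high R:FR.

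Among lower genes with only a locus tag, AT2G38870 was the brightest, at 76.4 at 16 °C and 799 at 22 °C in low R:FR and at 306 and 721 in high R:FR. AT3G16530 had 32.1 and 351 in low and 122 and 479 in high R:FR, and AT5G05600 had 34.8 and 306 in low and 98.2 and 311 in high R:FR. All 3 were low on both 16 °C arrays, with log2 differences of -3.39, -3.45 and -3.13 in low R:FR and -1.24, -1.97 and -1.66 in high R:FR. AT4G16260 had 4.4 and 161 in low and 37.2 and 117 in high R:FR, a drop of at least 11.1-fold in low R:FR. AT5G19120 had 19.8 and 140.4 in low and 36.9 and 100.2 in high R:FR (log2 -2.83 and -1.44).

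Genes of glucosinolates, the sulfur-rich defence compounds of cabbage relatives, mostly lay below 0 at 16 °C in either light. Of 46 listed genes 5 were measured, of which 3 were lower by 2-fold or more and 0 higher in each light, with medians of -1.06 and -1.08. Of all measured probe sets 6.6% were lower and 1.65% higher by as much in low R:FR, and 3.17% and 1.12% in high R:FR. BCAT4, whose enzyme takes methionine into the pathway, had signals of 309 at 16 °C and 797 at 22 °C in low R:FR and of 255 and 1191 in high R:FR (log2 -1.37 and -2.22). UGT74B1, which adds the glucose, had 168 and 352 in low and 172 and 364 in high R:FR (log2 -1.06 and -1.08). PYK10, whose β-glucosidase cleaves glucosinolates in damaged cells, had 1083 and 2835 in low and 2024 and 2913 in high R:FR (log2 -1.39 and -0.53). PYK10 also carries the root marker sum given above, and the part of tissue make-up in these differences was not tested. AOP3, a side-chain gene of the pathway, had 317 and 604 in low and 242 and 697 in high R:FR (log2 -0.93 and -1.52), and AOP1 had a log2 difference of 0.17.

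**Figure D3:**
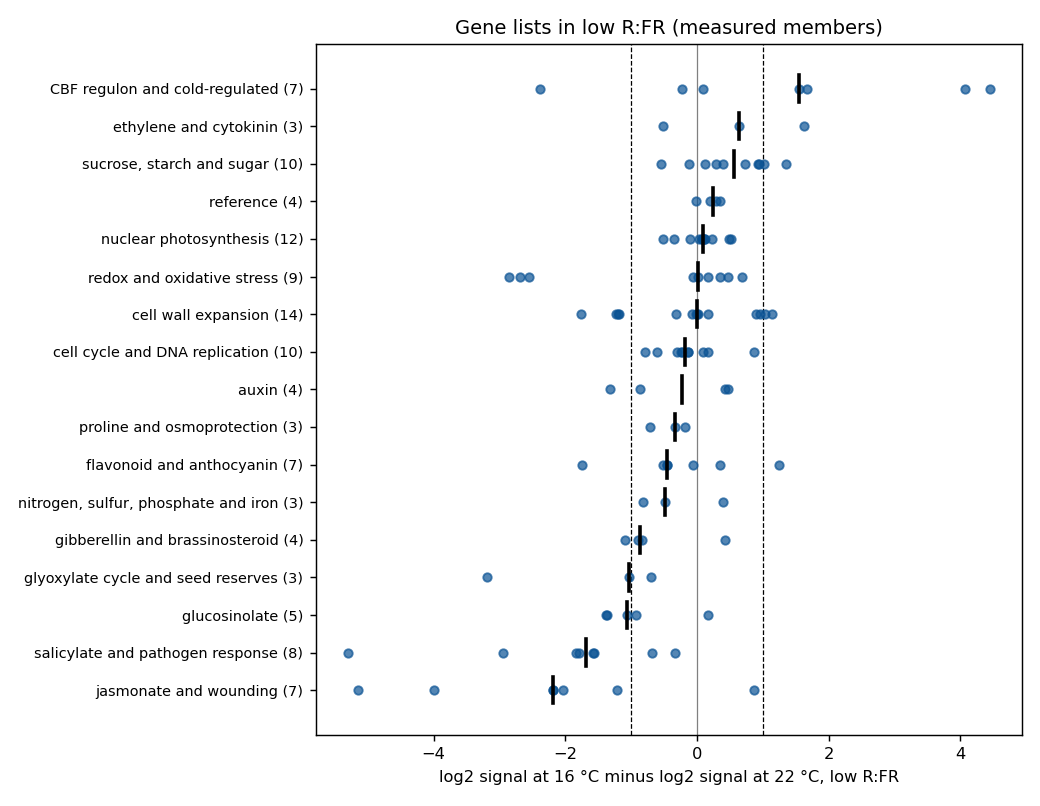
Log2 difference between 16 and 22 °C in low R:FR (horizontal axis) of each measured member (points) of the lists with at least 3 measured genes, with the list median as a black bar, the number of members in parentheses and dashed lines at 2-fold. The jasmonate list has the lowest median, -2.19, and the cold-regulated list the highest, 1.55. The cold-regulated median turns to -0.07 with the filter at the 60th percentile. Of the medians near 0, some change sign with the scaling, for cell wall expansion under median scaling and quantile normalization, and for redox and nuclear photosynthesis under quantile normalization.

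Few auxin genes were measured, and those of conjugation lay on the other side of 0 from the rest. Of 54 listed genes 4 were measured, of which 1 was lower by 2-fold or more in low R:FR and 0 higher, with a median log2 of -0.23. The enzymes of GH3.3 and WES1 join auxin to amino acids and so lower its free level. GH3.3 had signals of 99.2 at 16 °C and 249 at 22 °C in low R:FR and of 49.5 and 109.9 in high R:FR, and WES1 had 147 and 269 in low and 58.3 and 154 in high R:FR. Both were lower at 16 °C in each light, with log2 differences of -1.33 and -1.15 for GH3.3 and -0.87 and -1.40 for WES1. IAA29, an auxin-induced repressor and a common marker of shade, had 180 and 135 in low and 28.5 and 19.9 in high R:FR. Its signals lay much further apart between the lights than between the temperatures, where the log2 differences were 0.42 and 0.52. YUC2, an auxin synthesis gene, had 0.47 in low R:FR.

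Gibberellin genes were measured at the level of perception. GID1A, GID1B and GID1C encode the gibberellin receptors, and SLY1 the F-box protein that removes the growth-repressing DELLA proteins. GID1A had signals of 66.4 at 16 °C and 118 at 22 °C in low R:FR and of 83.4 and 53.4 in high R:FR, and GID1B had 25.5 and 54.4 in low and 36.8 at either temperature in high R:FR. Both were highest on the 22 °C low R:FR array, with log2 differences of -0.83 and -1.09 in low R:FR and 0.64 and 0.00 in high R:FR. SLY1 had 44 and 82.1 in low R:FR (log2 -0.90), and GID1C 22.2 and 16.5 (log2 0.43). Of these 4 measured genes of 37 listed, 1 (GID1B) was lower by 2-fold or more and 0 higher, and the median was -0.87. With the higher floor GID1B fell short of 2-fold.

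The regulators of shade and warmth themselves were hardly covered. Of 51 listed genes 2 were measured, both within 2-fold. The light-signalling gene HYH had 74.1 and 49.8 in low and 88.6 and 62.6 in high R:FR (log2 0.57 and 0.50). The homeodomain gene HAT2 had 106 and 128 in low and 72.2 and 85.2 in high R:FR (log2 -0.28 and -0.24). The clock list had 1 measured gene, GI, which links the clock to flowering, at 108 and 199.5 in low and 92.8 and 142 in high R:FR (log2 -0.89 and -0.62). In cytokinin signalling ARR15, a type-A response regulator gene like RR16, had log2 differences of 0.63 in low and 0.74 in high R:FR. No listed gene of abscisic acid or of membrane lipid desaturation had a named probe set.

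Cell wall genes went both ways. Expansins loosen walls and XTH enzymes cut and rejoin xyloglucan chains as cells grow. Of 61 listed genes 14 were measured, of which 2 passed 2-fold on the higher side and 4 on the lower. The list's median log2 of -0.01 turned positive when the arrays were scaled to the same median and with quantile normalization. XTH18 had signals of 54.7 at 16 °C and 185 at 22 °C in low R:FR and of 38.4 and 113 in high R:FR (log2 -1.76 and -1.56), and its neighbour XTH19 had 49 and 113 in low and 36.9 and 57.4 in high R:FR (log2 -1.2 and -0.64). EXLA1, an expansin-like gene, had 66.7 and 152 in low and 59.8 and 149 in high R:FR (log2 -1.19 and -1.32). These 3 were low on both 16 °C arrays. EXLA2, the other lower gene, was dim throughout and passed the filter through the 22 °C low R:FR array alone, and with the higher floor its log2 difference was -0.26, short of 2-fold. On the higher side EXPA16 had 55.3 and 25.2 in low and 45 and 35.1 in high R:FR (log2 1.13 and 0.36), and EXPB1 had 52.1 and 25.6 in low and 26.1 and 22 in high R:FR (log2 1.03 and 0.25). Both are dim, and neither passed 2-fold with the higher floor. The brightest expansin gene, EXPA8, was level at 526 and 529 in low R:FR.

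Flavonoid genes lay on both sides. Of 48 listed symbols, for which 39 genes were found, 7 were measured. CHIL passed 2-fold on the higher side and 1 gene on the lower, with a list median of -0.46. The lower one was UGT72E1, at 49.3 and 166 in low and 106 and 122 in high R:FR (log2 -1.75 and -0.21), whose enzyme acts on lignin precursors and not on flavonoids. DFR, of anthocyanin synthesis, had 78.9 and 114 in low and 122 and 209 in high R:FR (log2 -0.52 and -0.77). The list's median was -0.06 with the higher floor.

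The measured nuclear genes of photosynthesis all stayed within 2-fold. Of 80 listed genes 12 were measured, all with signals of 286 or more, with a median log2 of 0.09 that turned to -0.10 with quantile normalization. The 2729 brightest of all measured probe sets had a median of 0.16. SBPASE and PRK, both of the Calvin cycle, were the highest, at 3603 and 2529 and at 3893 and 2778 in low R:FR (log2 0.51 and 0.49). The light-harvesting gene LHCB4.2 was the lowest, at 814 and 1164 in low and 1134 and 1506 in high R:FR (log2 -0.52 and -0.41). RCA, which encodes Rubisco activase, and the light-harvesting gene LHCB4.1 lay nearest the median, at 4149 and 3872 and at 3995 and 3774 in low R:FR. The reference genes EIF4A-2, GAPC2, TUB6 and PEX4 had low R:FR differences between -0.02 and 0.35, with GAPC2 at 3153 and 2570.4 and TUB6 at 412 and 359.

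Transcripts encoded by the chloroplast genome spread to both sides. Of 68 measured probe sets 8 passed 2-fold on each side in low R:FR, where of all measured probe sets 1.65% were higher and 6.6% lower by as much. In low R:FR 42 of the 68 were below 0, beside 53.9% of all measured probe sets, with a median log2 of -0.21. In high R:FR 0 were higher and 16 lower, beside 1.12% and 3.17% of all measured probe sets, with a median of -0.47. The group was chosen after its values were seen. How the labelling reaction was primed is not given in the sources used here, and its part in these signals was not tested. On the 16 °C low R:FR array the signals differed widely, with psbA at 44.8 and atpB at 4591. The 8 higher transcripts were rps14, petD, rpoB, ndhG, petN, ndhJ, psbN and ycf3, and each of them was below 0 in high R:FR. The small ribosomal subunit gene rps14 had signals of 224 at 16 °C and 46.6 at 22 °C in low R:FR and of 21.2 and 30.6 in high R:FR. The RNA polymerase gene rpoB had 183 and 58.2 in low and 23.2 and 37.3 in high R:FR, and petD, of the cytochrome b6f complex, had 154 and 45.5 in low and 17 and 24 in high R:FR. All 3 were brightest on the 16 °C low R:FR array and dimmest on the 16 °C high R:FR array, with log2 differences of 2.27, 1.66 and 1.76 in low R:FR and -0.53, -0.69 and -0.47 in high R:FR.

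The 8 lower chloroplast transcripts were rbcL, atpF, ndhK, atpA, psbK, psbC, psbE and clpP. rbcL, which encodes the large subunit of Rubisco, had signals of 54.9 at 16 °C and 319 at 22 °C in low R:FR and of 71.3 and 135 in high R:FR (log2 -2.54 and -0.92). The ATP synthase genes atpF and atpA had log2 differences of -1.61 and -1.24, with atpF at 172 and 525 and atpA at 683 and 1613 in low R:FR. ndhK, of the NDH complex of cyclic electron flow, had 228 and 641 in low and 118 and 245 in high R:FR (log2 -1.49 and -1.06). The higher and lower sets differed in their level on both high R:FR arrays, which the comparison does not use, and on the 22 °C low R:FR array. On the 16 °C high R:FR array the 8 higher ones did not exceed a signal of 50.6 (median 23.7). The 8 lower ones did not fall under 71.3 there (median 514). At 22 °C these limits were 94.6 and 135 in high R:FR and 218 and 319 in low R:FR. Over all 68, the 16 °C high R:FR array had the lowest of the 4 signals for 53. Low R:FR exceeded high R:FR for 57 of 68 at 16 °C and for 60 of 68 at 22 °C.

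By complex, photosystem II transcripts were taken as all measured psb genes, whether or not they encode a subunit. They lay mostly on the lower side, with 13 of 15 below 0, psbN past 2-fold higher and 3 past 2-fold lower, and a median of -0.56. Among all measured probe sets 53.9% were below 0 in low R:FR. The 9 NDH transcripts had a median of -0.36 and a mean of 0.01, with ndhG at 298 and 113 and ndhJ at 284 and 126 on the higher side in low R:FR and ndhK on the lower. The 6 transcripts of the cytochrome b6f complex had a median of 0.21, with petD and petN higher, and petA and petB, the brightest, at -0.09 and -0.18. With the filter at the 60th percentile the NDH median became 0.007 and the cytochrome b6f median -0.09. Photosystem I had 5 transcripts within 2-fold and a median of -0.19. The 6 ATP synthase transcripts had a median of -0.34, with atpB and atpE, the brightest, at log2 0.08 and 0.09. The 15 ribosomal protein transcripts had a median of 0.00, which became negative with quantile normalization, and 14 of them were within 2-fold, rps14 being the exception.

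**Figure D4:**
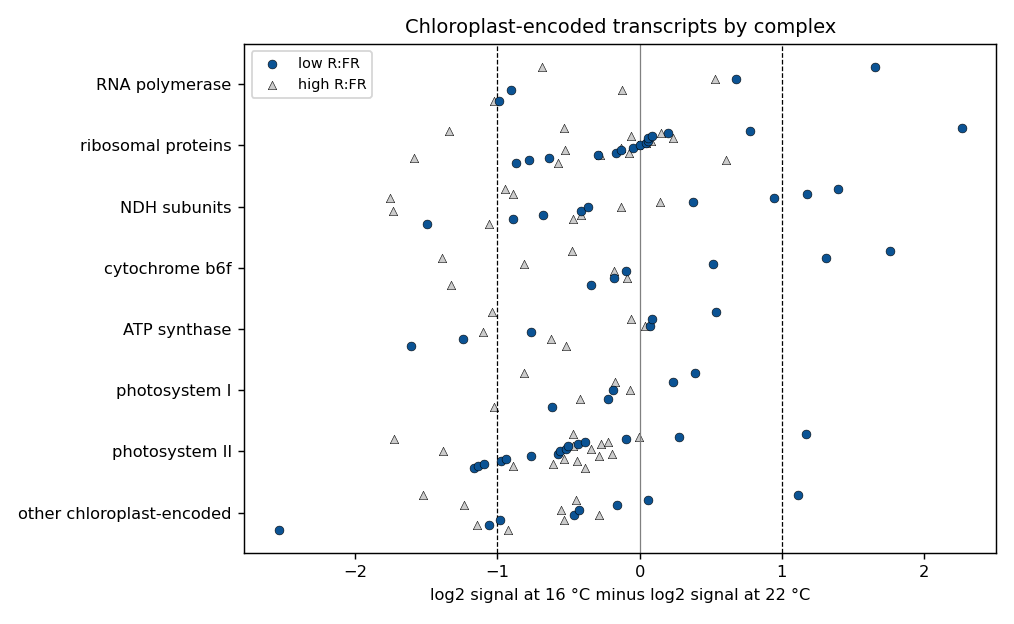
Log2 difference between 16 and 22 °C (horizontal axis) of the 68 measured chloroplast-encoded transcripts by complex, in low R:FR (blue circles) and in high R:FR (grey triangles), with dashed lines at 2-fold and each transcript at 1 height. In low R:FR 8 transcripts lie right of the upper line and 8 left of the lower one, and in high R:FR 0 and 16. The median of the RNA polymerase group, -0.11, turns positive under median scaling and that of the ribosomal proteins negative under quantile normalization.

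The same temperature difference in high R:FR shares no array with that in low R:FR, so both can be set side by side. In high R:FR 153 measured probe sets were higher by 2-fold or more at 16 °C and 432 lower, and the spread of all log2 differences was smaller, with an SD of 0.46 against 0.59 in low R:FR. Of the 225 probe sets higher in low R:FR 42 were also higher in high R:FR, which is 18.7% of the low R:FR list and 27.5% of the high R:FR list. Of the 901 lower ones 199 were also lower, which is 22.1% of the low R:FR list and 46.1% of the high R:FR list. Past 2-fold in opposite directions were 4 and 6 probe sets. By sign alone, 77.3% of the 225 were above 0 in high R:FR, against 45.5% of all measured probe sets, and 84.5% of the 901 were below 0, against 54.3% of all. The median difference in high R:FR was 0.47 for the higher list and -0.53 for the lower. Over all measured probe sets Pearson's r between the differences was 0.498 and Spearman's rho 0.482, a description across probe sets, which are not independent replicates.

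Choosing by 2-fold already places the 16 °C low R:FR array on 1 side of the 22 °C one, so where it stands against the high R:FR arrays is given as a description. For 259 of the 901 lower probe sets (28.7%) it lay at least 2-fold below every other array. For 145 of the 901 both 16 °C arrays lay at least 2-fold below both 22 °C arrays. On the higher side the 16 °C low R:FR array stood at least 2-fold above every other array for 30 of 225 probe sets (13.3%), and both 16 °C arrays stood at least 2-fold above both 22 °C arrays for 29. Named genes of the shared kind were COR27 and AT4G30650 on the higher side and JRG21, OSM34 and PDF1.2b on the lower. The kinds overlap, and a probe set can be in both counts. AT4G30650, JRG21, OSM34 and PDF1.2b also lay at least 2-fold past every other array on the 16 °C low R:FR array, and COR27 did not. COR15A, LTI30, PUB23 and Prx37 were only of the kind seen on 1 array.

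**Figure D5:**
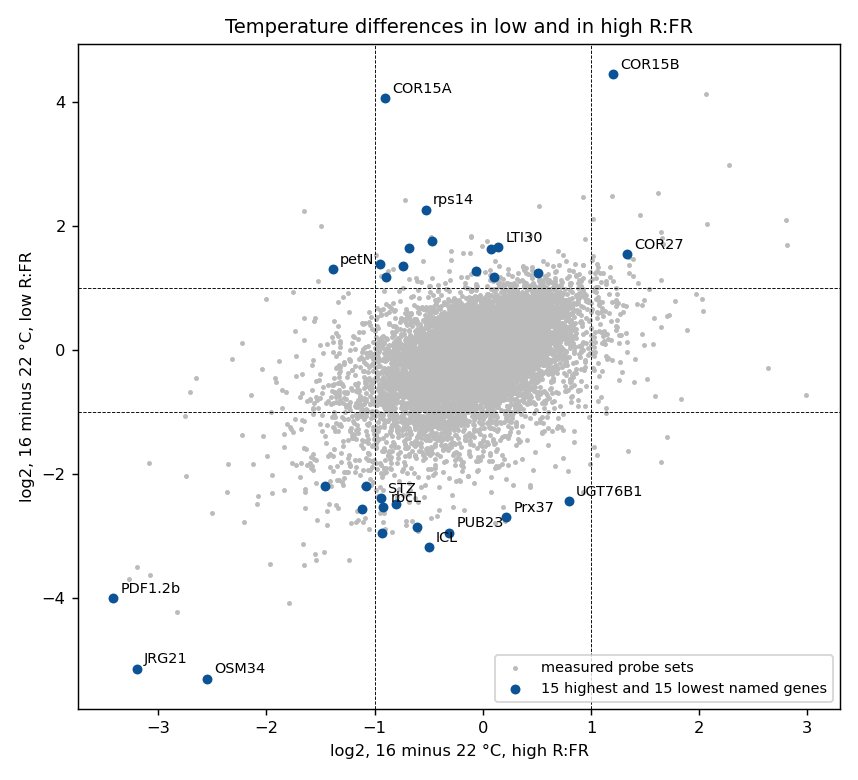
Log2 difference between 16 and 22 °C in low R:FR (vertical axis) against that in high R:FR (horizontal axis) for each measured probe set (grey) and for the 15 highest and 15 lowest named genes (blue), with dashed lines at 2-fold. COR15B and COR27 lie past 2-fold in both lights, COR15A and LTI30 only on the vertical axis, and JRG21, OSM34 and PDF1.2b lie at the bottom left.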

How the data were processed

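The deposited values are linear intensities, 1 signal per probe set and array. Per the submitters' processing notes the authors used MAS5. The sources used here give neither its settings and detection calls nor the priming of the labelling reaction. Per the labels' protocols, RNA was extracted with a column kit and acid phenol and labelled by the array maker's protocol at a service laboratory. No scan date or batch is named. Trimmed means agreed on all arrays, so no scaling was added.

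Signals below the 30th percentile (14.5) were raised to it and log2 was taken (Python 3.11.15, pandas 2.3.3, numpy 2.4.6). The 64 control probe sets were left out, and probe sets with a geometric mean at or above the 40th percentile (23.2) were kept. The counts were checked on simulated data. The number of arrays limits the precision, and a ratio to a value at the floor is written as "at least". The local SD is a scaled median absolute deviation.

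Of the 13643 measured probe sets 7317 had 1 gene in the platform annotation, 266 several and 6060 none here, and 1079 had a symbol in RefSeq's table (assembly TAIR10.1), through which 13436 of 13513 annotated genes on the whole array were matched. No gene was named from a probe set with several. Without a stated genome build, no coordinates are printed. The text names the 15 highest and 15 lowest genes with a symbol and the 5 highest and lowest with a locus tag only, all with a brighter low R:FR signal of at least 37.8. Members of 22 lists (1090 listings, 117 measured) past 2-fold, or else the 2 nearest the list median, and the 2 extremes of each family are named as well. Other list members are named beside them, and these were chosen after their values were seen. CHI was taken out of the flavonoid list because that symbol belongs to a chitinase gene in RefSeq, though the 48 listed there still count it. Numbers of listed genes and markers count symbols. Some symbols name the same gene or were not found, so a list can hold fewer genes than symbols. Members and lists were chosen with earlier results of these data known, and list counts and medians are descriptions. Alternatives were 2 other scalings, 2 other floors, a pseudocount in place of the floor, 2 other filters and a 3-fold limit.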

Additional observations from a re-analysis of the deposited data

Results flagged for a closer look

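With 1 array a condition, no array could be tested as an outlier within its group. Of the 63 genes past 2-fold in low R:FR that the naming rule picked, 12 had the opposite sign in high R:FR by more than 0.21. That is the SD of the spiked transcripts, a scale of hybridization error alone. Outside that rule psbN, ycf3, AT3G13950 and AT4G12500, named elsewhere in the text, met the same limit. The difference between the lights was not tested for any of them.

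Of the genes higher at 16 °C in low R:FR, the freezing-protection gene COR15A had a log2 difference of -0.91 in high R:FR, against 4.06 in low R:FR. APL3 had -0.74 in high and 1.36 in low R:FR, and AT1G44830 had -0.29 in high and 1.6 in low R:FR. The chloroplast-encoded transcripts made up the largest share, with high R:FR differences of -0.53 for rps14, -0.47 for petD, -0.69 for rpoB, -0.95 for ndhG, -1.39 for petN and -0.89 for ndhJ. On the 16 °C high R:FR array their signals were between 17 and 50.6, the lowest of the 4 arrays for each. The high R:FR differences of AT1G44830 and petD did not exceed the local SD of these genes in low R:FR, 0.52 and 0.47. Both high R:FR signals of COR15A, APL3, AT1G44830, rps14, petD and rpoB lay under 37.8. For these genes the higher floor leaves no difference in high R:FR.

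Of the genes lower at 16 °C in low R:FR, UGT76B1 had a high R:FR difference of 0.79, Prx37 of 0.22 and EXLA2 of 0.23. Those of Prx37 and EXLA2 were smaller than the local SD of these genes in low R:FR, 0.47 and 0.65. EXLA2 was dim on every array, at 19.3 at 16 °C and 45.2 at 22 °C in low R:FR and at 24.3 and 20.7 in high R:FR.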

How the results depend on the processing

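No paired analysis was possible because each condition had 1 array and all carry the same replicate number. For the same reason no array was left out in turn. Lower calls outnumbered higher ones under each alternative run. Bringing the arrays to the same median moved the median of all low R:FR differences from -0.05 to 0.13, and gave 424 higher and 644 lower probe sets, 39.7% higher, with 73 and 128 also past 2-fold the same way in high R:FR. Quantile normalization gave 30.1% higher. A floor at the 50th percentile gave 145 higher and 536 lower, with 27 and 119 shared with high R:FR. A pseudocount in place of the floor gave 116 higher, with 19 and 105 shared. A filter at the 60th percentile, which left 9099 probe sets, gave 126 and 475, with 26 and 99 shared. At 3-fold the counts were 34 and 293, with 9 and 36 shared. The smaller counts follow from fewer probe sets kept, a higher limit, or ratios narrowed by the floor or the pseudocount. Of the 63 named genes past 2-fold, between 37 and 63 passed it under the 7 settings other than 3-fold, and 0 changed sign. The 37 came from the filter at the 60th percentile, under which the other 26 were not measured. The next lowest number was 50, with the floor at the 50th percentile. The median of the cold-regulated list was -0.069 with the filter at the 60th percentile, which dropped the dimmer members, and between 1.18 and 1.72 under the others. That filter also took the auxin median to -0.87 and those of the plastid ATP synthase and RNA polymerase transcripts to -0.77 and -0.90. With the floor at the 50th percentile the ethylene and cytokinin median was 0.18, and BGLU46, WRKY6, Prx37, UGT76B1 and AT4G16260, still past 2-fold, had -1.67, -1.57, -1.44, -1.05 and -2.09. Dim signals limit the folds, since 151 of the 901 lower probe sets lay at the floor at 16 °C.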

Other observations

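Glycosyltransferases of the UGT family, which attach sugars to hormones and defence compounds, lay mostly below 0 at 16 °C in low R:FR. Of 25 measured members 22 were below 0, 8 were lower by 2-fold or more and 0 higher, with a median log2 of -0.46 in low and -0.16 in high R:FR. Among all measured probe sets 53.9% were below 0 in low R:FR and 6.6% were lower by 2-fold or more. UGT85A2 had signals of 28.2 at 16 °C and 106 at 22 °C in low R:FR and of 42 and 75.4 in high R:FR. The highest member was UGT80B1, of sterol glucosides, at 80.9 and 52.4 in low R:FR (log2 0.63). All 7 measured cytochrome P450 genes, each of the CYP71B group, were below 0 in low R:FR, with a median of -0.64, or -0.17 with the floor at the 50th percentile, and 2 past 2-fold. CYP71B5 had 46.9 and 97.9 in low and 74.9 and 87.9 in high R:FR, and CYP71B34, the closest to 0, had 79.7 and 89.7 in low and 65.5 and 75.7 in high R:FR.

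Genes of cell division and chromatin lay within 2-fold in low R:FR. Of 10 measured cell cycle genes 0 passed 2-fold in low R:FR, with a median of -0.18, and the mitotic kinase gene AUR2 had 78 and 91 in low and 50.2 and 106 in high R:FR. The 7 measured histone genes had a median of -0.06, which turned positive under both other scalings and when the floor was raised to the 50th percentile, with the linker histone gene HIS1-3 highest at 36.1 and 25.3 and the centromeric histone gene HTR12 lowest at 22.8 and 28.3 in low R:FR. The 6 measured glutathione transferase genes had a median of -0.02, which turned positive under median scaling and with the filter at the 60th percentile, between GSTU20 at 1473 and 1308 and GSTF4 at 27.4 and 39.6. Of 5 measured bHLH genes, bHLH34 was the 1 past 2-fold, and bHLH121 was the lowest at 56.3 and 72.3 in low R:FR. PUB49, the ubiquitin ligase gene nearest 0, had 68.9 and 74.6. Among the sulfur genes APS3 and APS4, which activate sulfate, had log2 differences of -0.82 and -0.48, and of 3 measured genes of that list 0 passed 2-fold. The same held for 3 genes of proline and osmoprotection, of which ALDH10A9 had 234 and 295 in low R:FR, and for Hsp70-2, the 1 measured heat shock gene, at 220.3 and 236. The 7 measured mitochondrion-encoded transcripts were all below 0 in low R:FR, with 2 past 2-fold and a median of -0.58, or -1.23 in high R:FR. Among all measured probe sets 53.9% were below 0 in low R:FR. The closest to 0 was orfX, at 32.3 and 33.3. nad4, of respiratory complex I, was at 9.0 at 16 °C and 57.9 at 22 °C in low R:FR, and NAC014, a transcription factor gene, at 25.5 and 60.7. With the floor at the 50th percentile neither passed 2-fold, at -0.62 and -0.68, and the mitochondrial median was -0.17.

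Past 2-fold in opposite directions in the lights were 10 probe sets, of which 4 have a gene name here, given because of their values. petN and ycf3 were higher at 16 °C in low R:FR and lower in high R:FR, with ycf3 at 473 and 218 in low and 33 and 94.6 in high R:FR. AT3G13950 and AT4G12500 were lower at 16 °C in low R:FR and higher in high R:FR. AT4G12500 had 41.6 and 145 in low R:FR and 521 and 167 in high R:FR.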
